A study of Mus musculus with 12 samples.

Results

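The 5 genes described here are Gad1 and Gad2, which encode the pair of glutamate decarboxylases that make GABA from glutamate, Npy and Sst, which encode the neuropeptides NPY and somatostatin, and Reln, which encodes the secreted glycoprotein reelin. They were chosen by name, as genes that mark cortical interneurons or their transmitter synthesis. No cut on their values was used, but earlier results of these data were known when they were chosen. All 5 had a row among the 12145 gene rows of the count table, and all 5 passed the filter on low counts that left 12119 genes to be tested.

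GABA is the main inhibitory transmitter of the cortex and is made by the interneurons, with GAD67 (Gad1) found through the cell and GAD65 (Gad2) enriched at the terminals. Somatostatin and NPY are stored in dense-core vesicles and released by subsets of those interneurons, many of which hold both peptides. Reelin is secreted by Cajal-Retzius cells of the early cortex and later by interneurons, and signals through the receptors ApoER2 (Lrp8) and VLDLR to the adaptor Dab1.

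RNA-seq was run on primary cultures of mouse cortex (C57BL6, dissected at E16.5 to E17.5) that all carried a lentivirus, given on day 6 in vitro in 2 rounds to a total multiplicity of infection of 2. The virus expressed miR-29, named miR-29c in the sample labels, or was an empty control virus, and on day 14 cultures underwent oxygen and glucose deprivation (OGD), a culture model of ischemia. OGD-miR-29 cultures (n = 3) had the miR-29 virus, 3 h of OGD and 4 h of recovery, and OGD-empty cultures (n = 3) had the empty virus and the same treatment. Sham-miR-29 cultures (n = 3, miR-29 virus) and sham-empty cultures (n = 2 used of 3 labelled, empty virus) were rinsed in the OGD buffer and kept under normal oxygen. The cultures hold mixed cortical cells, the cell types that took up the virus are not given in the sources used here, and libraries with the same replicate number come from cultures of the same dissection day.

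Total counts ran from 1337564 to 6616920 per library, of which the 37 mitochondrial rows took 57.6% to 84.1%, leaving 231500 to 1362484 counts for all other genes. The column labelled sham-empty replicate 3 was left out, since it summed to 22859 and had a Spearman correlation of 0.0438 to 0.0978 with the other columns. Its value matched a count of same-strand annotated genes (the gene itself plus those overlapping it or its 10 kb downstream) for 92.5% of 11947 matched symbols, and for the 5 genes it read 1 for Npy, 4 for Reln, 1 for Gad1, 3 for Gad2 and 1 for Sst. Rows of all 14 pan-neuronal markers listed were present. Of the OGD-empty libraries, replicate 2 stood apart in the summed level of several neuronal lists, with 1273 CPM (read counts scaled to library size, with TMM factors) for 13 interneuron subclass markers against 416 and 430 CPM in replicates 1 and 3, and the fits were repeated without it. In bulk RNA, fewer cells of a type and less RNA per cell cannot be told apart.

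The mature sequence carried by the virus is shown first, because its seed (bases 2 to 8, in capitals) sets which transcripts could pair with it. Its relatives miR-29a and miR-29b have the same seed. The sequences are from RefSeq, build GRCm38.p6.
mmu-miR-29c-3p: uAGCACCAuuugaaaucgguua
mmu-miR-29a-3p: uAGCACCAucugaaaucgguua
mmu-miR-29b-3p: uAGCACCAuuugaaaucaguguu
The 7 letters that pair with this seed, TGGTGCT on the transcript strand, were found in 0 of the 5 genes' annotated 3' UTRs (GENCODE M21, 1 transcript a gene). Those UTRs run to 180 bases in Npy, 156 in Sst, 1218 in Gad1, 3528 in Gad2 and 1019 in Reln. Across the annotation, 2477 of 21020 genes with a 3' UTR (11.8%) held the letters. A missing match says only that these letters are not in these UTRs.

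The 250 bases before the annotated start of the genes for the 2 peptides are shown next, since NPY and somatostatin are released by overlapping sets of cells. Whether Npy and Sst differed from each other in any comparison below was not tested, nor was any part of these bases in the results. The first lies at chr6:49822460-49822709 on the plus strand and the second at chr16:23890845-23891094 on the minus strand (RefSeq, GRCm38.p6), each printed 5' to 3'. Capitals mark the cAMP response element, TGACGTCA, the element through which CREB is known to act on Sst.
Npy: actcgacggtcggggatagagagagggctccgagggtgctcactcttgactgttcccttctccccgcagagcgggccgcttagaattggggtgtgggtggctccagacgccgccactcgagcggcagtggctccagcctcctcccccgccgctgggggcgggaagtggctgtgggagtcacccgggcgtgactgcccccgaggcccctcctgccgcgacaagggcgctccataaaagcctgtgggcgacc
Sst: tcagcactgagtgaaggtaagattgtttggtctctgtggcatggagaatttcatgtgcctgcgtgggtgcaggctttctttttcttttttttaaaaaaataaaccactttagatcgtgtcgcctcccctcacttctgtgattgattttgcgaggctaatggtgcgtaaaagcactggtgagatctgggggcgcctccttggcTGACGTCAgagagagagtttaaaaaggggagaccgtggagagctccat
Of the 5 promoters, only that of Sst held TGACGTCA, at bases -48 to -41 before the start, where 1.55% of 32851 promoters of this length did. The shorter site TGACG, searched on both strands and part of the full element on each strand, was also found in the Gad2 promoter, at -33 to -29, and in 17.8% of all promoters. TATAAA, searched on both strands, was found in the Gad1 promoter at -141 to -136 and in 12.4% of all promoters. The share of G and C was 69.2% for Npy, 47.2% for Sst, 58.0% for Gad1, 64.0% for Gad2 and 80.0% for Reln, beside a median of 52.4% over all promoters.

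The 5 genes differ widely in the length of DNA they span (GRCm38, GENCODE M21). Sst spans 1.39 kb at chr16:23889573-23890958 and Npy 6.80 kb at chr6:49822710-49829507. Gad1 spans 48.9 kb at chr2:70553072-70602014, Gad2 spans 71.7 kb at chr2:22622205-22693874, and Reln spans 460 kb at chr5:21884454-22344702. The promoters above were cut at RefSeq starts, which differ from these spans for some genes. Those of Sst and Gad2 overlap the span of their gene, and that of Gad1 lies inside it. The promoter sites given for Sst, Gad1 and Gad2 thus lie within these spans. Npy and Sst had no annotated neighbour inside the gene or within 10 kb downstream. Inside or next to Reln lie 7 annotated genes, of which Gm10475 had 20.8% to 29.0% of Reln's count in each library, and next to or inside Gad2 lies Gm23636 with 1.68% to 10.7% of Gad2's count. Whether such reads were counted for more than 1 gene is not given in the sources used here, and levels are not compared between genes.

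**Figure D1:**
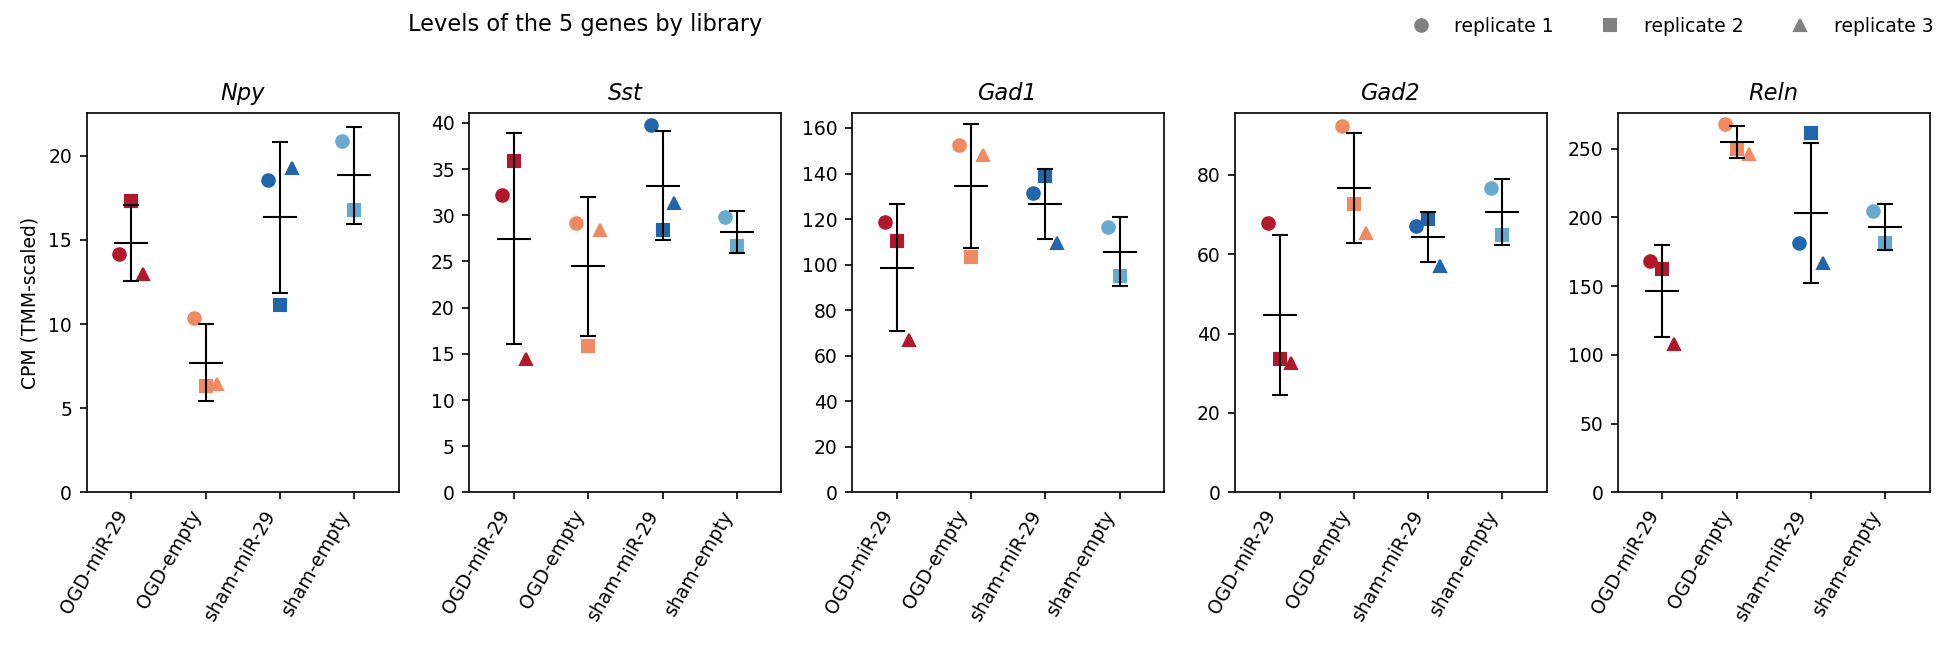
Level of each gene in CPM (vertical axis) in each of the 11 libraries, by group, with the replicate number as the symbol. The horizontal line and bars are the group mean and SD. Npy was lowest in the 3 OGD-empty libraries (6.32 to 10.3 CPM), and Reln was at 246 CPM or more there and in 1 sham-miR-29 library, at 261 CPM.

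After OGD, the 2 viruses differed in 3 of the 5 genes: Npy was higher, and Gad2 and Reln were lower, in cultures with miR-29 than in cultures with the empty virus. In this comparison 37.1% of all genes tested were called at an adjusted p under 0.05 (edgeR's quasi-likelihood test, Benjamini-Hochberg over all genes), 17.2% higher and 19.9% lower, so 3 of 5 is read against a background in which calls were common. The median log2 fold change was -0.45 over the 5 genes and 0.02 over all genes.

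Gad2 stood at 67.8, 33.5 and 32.7 CPM in OGD-miR-29 replicates 1 to 3, against 92.2, 72.7 and 65.4 CPM in OGD-empty replicates 1 to 3. Replicate 1 was the highest of each group, and the OGD-miR-29 library at 67.8 CPM exceeded the lowest OGD-empty library, so the groups overlapped. The means were 44.7 ± 20.04 CPM in OGD-miR-29 cultures and 76.8 ± 13.9 CPM in OGD-empty cultures (SD, n = 3 each). Gad2 fell by 0.77 on the log2 scale (SE 0.24, fold 0.588, edgeR adjusted p = 0.0196) and was lower in 3 of 3 same-day pairs. The edgeR call was lost without replicate 2 of the OGD-miR-29 group (adjusted p = 0.0988), without its replicate 3 (0.0905) or without OGD-empty replicate 1 (0.0921), and stood at an adjusted p of 0.00741 without OGD-empty replicate 2.

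Gad1, the other GABA-synthesizing enzyme, had 119, 110 and 66.8 CPM in OGD-miR-29 replicates 1 to 3, against 153, 103 and 148 CPM in OGD-empty replicates 1 to 3. The groups overlapped, with the lowest OGD-empty library, replicate 2, below 2 of the OGD-miR-29 libraries. The log2 fold change was -0.45 (SE 0.22), which did not pass the test (edgeR adjusted p = 0.119), and Gad1 was lower in 2 of 3 pairs. Without OGD-empty replicate 2 it became -0.63 and passed (edgeR adjusted p = 0.0223).

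The balance between the enzymes needs no scaling between libraries. Reads of Gad2 made up 36.3%, 23.3% and 32.9% of the Gad1 and Gad2 reads in OGD-miR-29 replicates 1 to 3, against 37.6%, 41.3% and 30.7% in OGD-empty replicates 1 to 3. The share was 33.8%, 33.1% and 34.3% in sham-miR-29 cultures, and 39.7% and 40.6% in sham-empty cultures. The single low value, OGD-miR-29 replicate 2, had a 95% Wilson interval of 19.2% to 27.9%, which covers counting error only, and the other 10 libraries lay between 30.7% and 41.3%.

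Npy, the peptide gene with the lowest counts (12 to 77 reads), had 14.1, 17.3 and 12.98 CPM in OGD-miR-29 replicates 1 to 3, against 10.3, 6.32 and 6.43 CPM in OGD-empty replicates 1 to 3. All 3 OGD-miR-29 libraries were above all 3 OGD-empty libraries, as was the case in 1 direction or the other for 50.1% of genes tested. The means were 14.8 ± 2.25 CPM in OGD-miR-29 cultures and 7.70 ± 2.29 CPM in OGD-empty cultures (SD, n = 3 each). Npy rose by 0.85 on the log2 scale (SE 0.27, fold 1.80, edgeR adjusted p = 0.0210) and was higher in 3 of 3 pairs. The edgeR call was lost without OGD-miR-29 replicate 2 (log2 fold change 0.73, adjusted p = 0.0770), without replicate 2 of the OGD-empty group (0.67, adjusted p = 0.0599) or without its replicate 3 (0.75, adjusted p = 0.0635).

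Sst, the other peptide gene, did not pass the test. It had 32.1, 35.8 and 14.4 CPM in OGD-miR-29 replicates 1 to 3, against 29.2, 15.8 and 28.4 CPM in OGD-empty replicates 1 to 3, and the ranges lay almost on top of each other. In each group 1 library was far below the others, replicate 3 with miR-29 and replicate 2 with the empty virus. The log2 fold change was 0.17 (SE 0.28, edgeR adjusted p = 0.660), and without OGD-empty replicate 2 it was -0.063. With an SE of this size, the missed threshold does not show that Sst was equal under both viruses.

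Reln had 168, 163 and 108 CPM in OGD-miR-29 replicates 1 to 3, against 268, 250 and 246 CPM in OGD-empty replicates 1 to 3. The groups did not overlap, and the 3 OGD-empty libraries lay close together. The means were 146 ± 33.2 CPM in OGD-miR-29 cultures and 255 ± 11.7 CPM in OGD-empty cultures (SD, n = 3 each). Reln fell by 0.80 on the log2 scale (SE 0.22, fold 0.576, edgeR adjusted p = 0.00873), and was lower in 3 of 3 pairs. Of the 5 genes it alone stayed called whichever of the 6 libraries was left out, with edgeR adjusted p-values of 0.00424 (without OGD-empty replicate 2) to 0.0452.

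Shares of the summed reads of the 5 genes show the same libraries on a scale free of library size. Npy made up 3.53%, 4.82% and 5.52% of these reads in OGD-miR-29 replicates 1 to 3, against 1.87%, 1.41% and 1.30% in OGD-empty replicates 1 to 3. It made up 4.24%, 2.19% and 5.02% in sham-miR-29 cultures, and 4.66% and 4.37% in sham-empty cultures. The 3 OGD-empty libraries thus held the 3 lowest Npy shares of all 11. Reln made up 41.9%, 45.2% and 46.0% in OGD-miR-29 cultures and 48.5%, 55.7% and 49.8% in OGD-empty cultures, and its sham values overlapped both groups, at 41.3%, 51.4% and 43.4% with miR-29 and 45.7% and 47.1% with the empty virus.

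**Figure D2:**
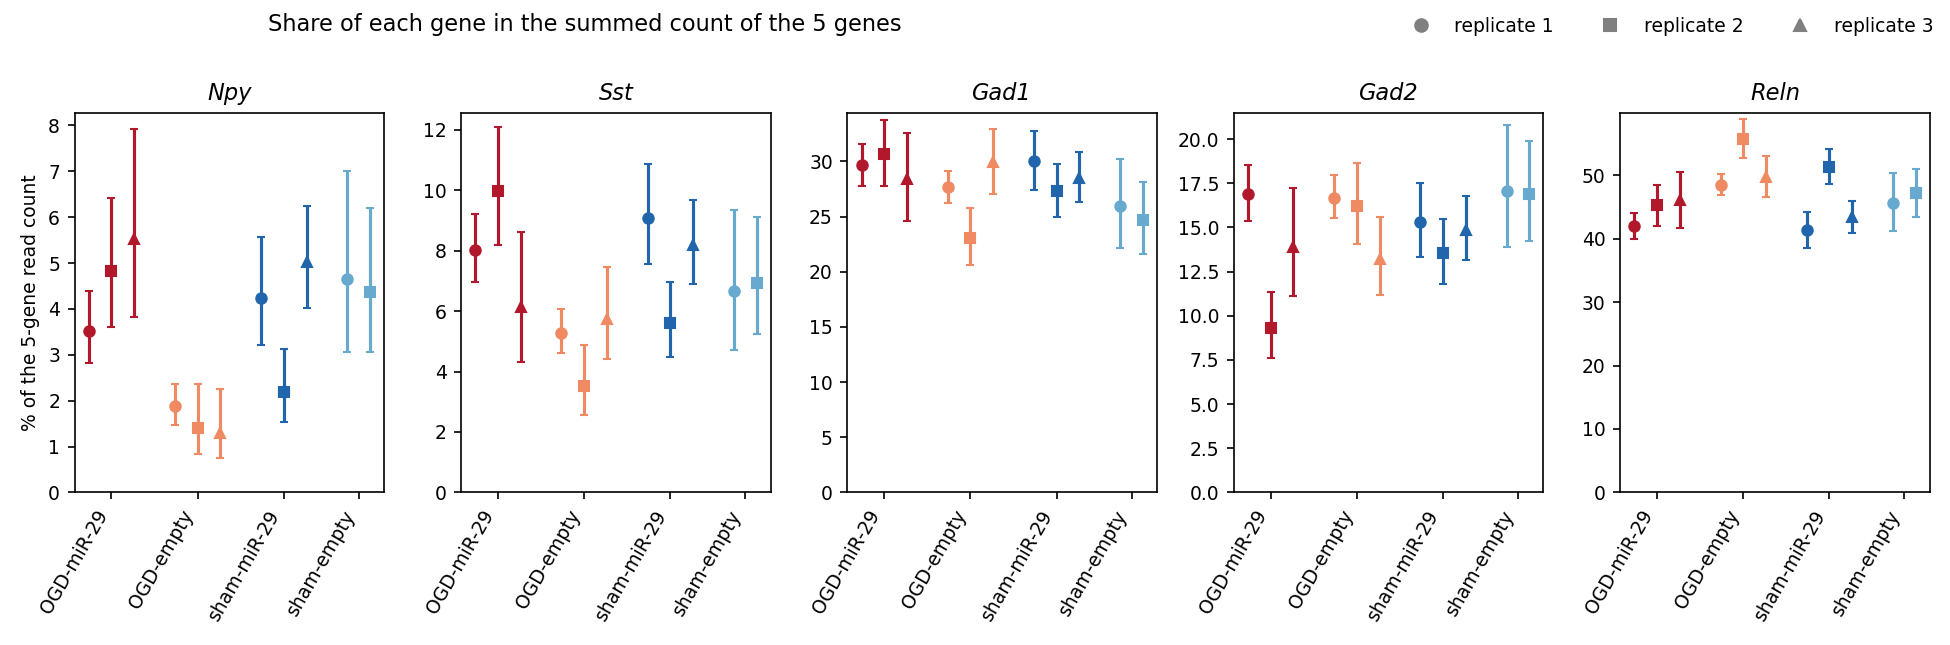
Share of each gene in the summed read count of the 5 genes (vertical axis, percent) for each library, by group. The 95% Wilson intervals cover counting error only, and each share also moves with the other genes of the sum. Npy shares were 1.30% to 1.87% in OGD-empty libraries and 2.19% or more in the other 8 libraries.

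Gene span moved with the differences. Across the 11924 genes with a span, the Spearman correlation of span with the log2 fold change was -0.580 for OGD-miR-29 against OGD-empty cultures, as a description over genes, which are not independent. The median log2 fold change was 0.49 for the 1327 genes of 5 to 10 kb, the class of Npy, where Npy itself was at 0.85. It was 0.49 for the 1417 genes of up to 2 kb, the class of Sst, and -0.01 for the 2849 genes of 20 to 50 kb, the class of Gad1. It was -0.42 for the 1637 genes of 50 to 100 kb, the class of Gad2, and -1.96 for the 321 genes over 400 kb, where Reln at -0.80 had fallen less than the median gene. With a trend over span removed from each library and the dissection day as a block, 0 of the 5 genes were called by edgeR. Npy was then at 0.45 (adjusted p = 0.188), Gad2 at -0.40 (0.119) and Reln at 0.50 (0.157), on the other side of 0.

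**Figure D3:**
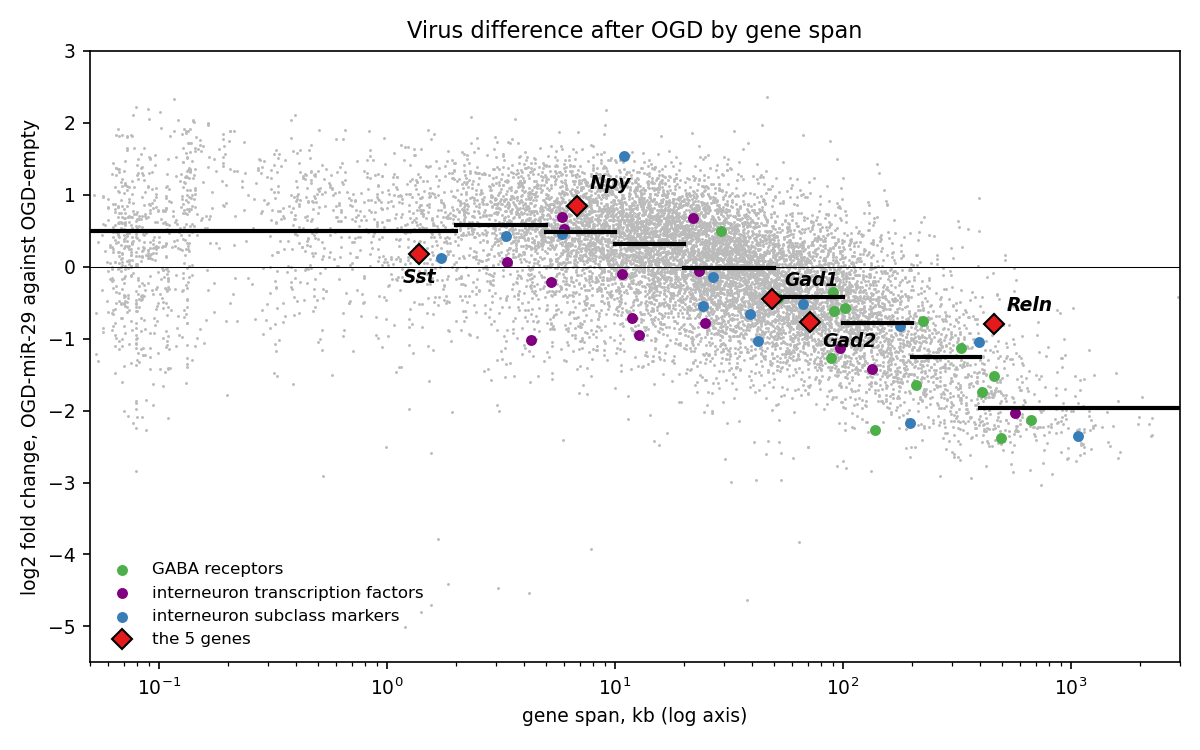
Log2 fold change of OGD-miR-29 against OGD-empty cultures (vertical axis) against gene span in kb (log axis) for the genes tested, with the 5 genes as red diamonds, 3 lists in colour and the median of each span class as a black line. Npy lies above the line of its class, Gad2 below, and Reln at -0.80 well above the median of -1.96 for genes over 400 kb.

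The effect of OGD under the empty virus was read from 3 OGD-empty and 2 sham-empty libraries, and the sham-empty and OGD-empty libraries enter other comparisons here too. Npy alone of the 5 was called, and lower, while 5.09% of all genes were called (1.48% higher, 3.61% lower). Npy stood at 10.3, 6.32 and 6.43 CPM in OGD-empty replicates 1 to 3, against 20.9 and 16.8 CPM in sham-empty replicates 1 and 2, with no overlap. Its log2 fold change was -1.17 (SE 0.33, fold 0.444, edgeR adjusted p = 0.0447), and it was lower in 2 of 2 pairs. The 3rd OGD-empty library gave 12 reads, with an exact Poisson interval of 6.20 to 21.0.

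That Npy call was close to the threshold. With edgeR it was lost without replicate 2 of the OGD-empty group (adjusted p = 0.0837), without its replicate 3 (0.0821), and without sham-empty replicate 1 (0.214) or 2 (0.223), where using a single sham-empty library assumes that it varies like the other groups. The number of all genes called was 617 and moved to 1369 with the dissection day as a block, under which Npy stayed called (-1.22, edgeR adjusted p = 0.0271). Without sham-empty replicate 1 it was 12.

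The other 4 genes did not pass the test for OGD under the empty virus. Reln was at 268, 250 and 246 CPM in OGD-empty cultures against 205 and 181 CPM in sham-empty cultures, without overlap, as for 43.6% of all genes, and its log2 fold change was 0.40 (SE 0.25, edgeR adjusted p = 0.328). Gad1 had 153, 103 and 148 CPM in OGD-empty and 116 and 94.9 CPM in sham-empty cultures, with a log2 fold change of 0.36 (SE 0.26, edgeR adjusted p = 0.406). For Gad2, OGD-empty libraries had 92.2, 72.7 and 65.4 CPM and sham-empty libraries 76.6 and 64.8 CPM, a log2 fold change of 0.13 (SE 0.28, edgeR adjusted p = 0.813). Sst had 29.2, 15.8 and 28.4 CPM in OGD-empty and 29.8 and 26.6 CPM in sham-empty cultures, a log2 fold change of -0.18 (SE 0.34, edgeR adjusted p = 0.793). Gad1, Gad2 and Sst overlapped between the groups. In the authors' deposited table for this comparison, Npy had a log2 fold change of -1.03 (false discovery rate 0.346) and Reln of 1.14 (0.361). None of the 5 passed a rate of 0.05 in the authors' deposited table, where 6 of 12145 genes did, and which libraries entered it is not stated there. The authors' deposited table of OGD-miR-29 against sham-empty cultures gave log2 fold changes of -0.07 for Npy, 0.39 for Sst, 0.65 for Gad1, -0.28 for Gad2 and 0.35 for Reln, with false discovery rates of 0.970 to 0.992.

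Span moved with this comparison in the other direction, at a Spearman correlation of 0.528 across genes. The median log2 fold change was -0.33 for the span class of Npy and 1.36 for that of Reln. With the span trend removed and the day as a block, Npy was at -0.90 (SE 0.32) and no longer called (edgeR adjusted p = 0.0969), and Reln was at -0.47 (edgeR adjusted p = 0.418). The sums of 12 excitatory neuron markers were 159 to 194 CPM in OGD-empty and 119 to 127 CPM in sham-empty cultures. The sums of 4 microglia markers were 22.0 to 30.0 CPM in OGD-empty and 38.8 to 43.8 CPM in sham-empty cultures, with 0 called, and those of 7 astrocyte markers 99.4 to 119 CPM in OGD-empty and 71.2 to 80.6 CPM in sham-empty cultures, with 0 called. Of the pan-neuronal, oligodendrocyte and endothelial lists 0 were called either, by edgeR, and the part of any of these in the Npy result was not tested.

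Under the miR-29 virus, 0 of the 5 genes were called between OGD and sham, where 0.0165% of all genes (2) were. At an unadjusted p under 0.05 the edgeR counts were 1 of the 5 genes and 1111 genes in all, and DESeq2 and limma-voom also called 0 of the 5. Npy had 14.1, 17.3 and 12.98 CPM in OGD-miR-29 cultures, against 18.6, 11.1 and 19.3 CPM in sham-miR-29 cultures, and its log2 fold change was -0.15 (SE 0.26, edgeR adjusted p = 0.872). Reln had 168, 163 and 108 CPM in OGD-miR-29 and 181, 261 and 167 CPM in sham-miR-29 cultures, lower in 3 of 3 pairs, with a log2 fold change of -0.47 (SE 0.22, edgeR adjusted p = 0.539). Sham-miR-29 replicate 2 held both the lowest Npy and the highest Reln value of its group.

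Gad1 had 119, 110 and 66.8 CPM in OGD-miR-29 cultures against 132, 139 and 110 CPM in sham-miR-29 cultures, lower in 3 of 3 pairs (log2 fold change -0.35, SE 0.22, edgeR adjusted p = 0.630). Gad2 had 67.8, 33.5 and 32.7 CPM in OGD-miR-29 cultures against 67.1, 68.8 and 57.1 CPM in sham-miR-29 cultures, with 2 of the OGD-miR-29 libraries far below all sham-miR-29 libraries (-0.50, SE 0.24, edgeR adjusted p = 0.549). Sst had 32.1, 35.8 and 14.4 CPM in OGD-miR-29 and 39.8, 28.4 and 31.4 CPM in sham-miR-29 cultures (-0.25, SE 0.28, edgeR adjusted p = 0.795). Every gene of the 5 had a negative fitted value here, and none was beyond the spread between libraries after adjustment. The median over the 5 was -0.35, against 0.00 over all genes.

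Without OGD, the viruses did not differ in any of the 5 genes by the test. No gene in the table was called by edgeR (0% of those tested), DESeq2 or limma-voom, and at an unadjusted edgeR p under 0.05 there were 405 genes in all and 0 of the 5. The log2 fold changes of sham-miR-29 against sham-empty cultures were -0.17 for Npy (SE 0.31), 0.24 for Sst (SE 0.34), 0.26 for Gad1 (SE 0.26), -0.13 for Gad2 (SE 0.28) and 0.073 for Reln (SE 0.25). Group means were 16.3 ± 4.51 CPM for Npy in sham-miR-29 cultures (n = 3) and 18.8 ± 2.90 CPM in sham-empty cultures (n = 2), and Reln had 203 ± 50.8 CPM in sham-miR-29 and 193 ± 16.8 CPM in sham-empty cultures (SD).

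Whether the viruses differed more after OGD than without it is the interaction, and 0 of the 5 genes were called for it by edgeR, against 8.38% of all genes. At an unadjusted edgeR p under 0.05 there were 3 of the 5 and 3379 genes in all, and DESeq2 and limma-voom called 0 of the 5. The interaction was 1.02 for Npy on the log2 scale (SE 0.42, edgeR adjusted p = 0.119), -0.87 for Reln (SE 0.33, 0.0956), -0.71 for Gad1 (SE 0.34, 0.176), -0.63 for Gad2 (SE 0.37, 0.271) and -0.068 for Sst (SE 0.44, 0.943). With the dissection day as a block, Reln was called (-0.9997, SE 0.33, edgeR adjusted p = 0.0461). Gad1 was called without OGD-empty replicate 2 (edgeR adjusted p = 0.0478) and Gad2 without OGD-miR-29 replicate 1 (0.0412). For the 5 genes, then, a virus difference past the test after OGD was not shown to differ from the virus difference in sham cultures, apart from these settings.

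**Figure D4:**
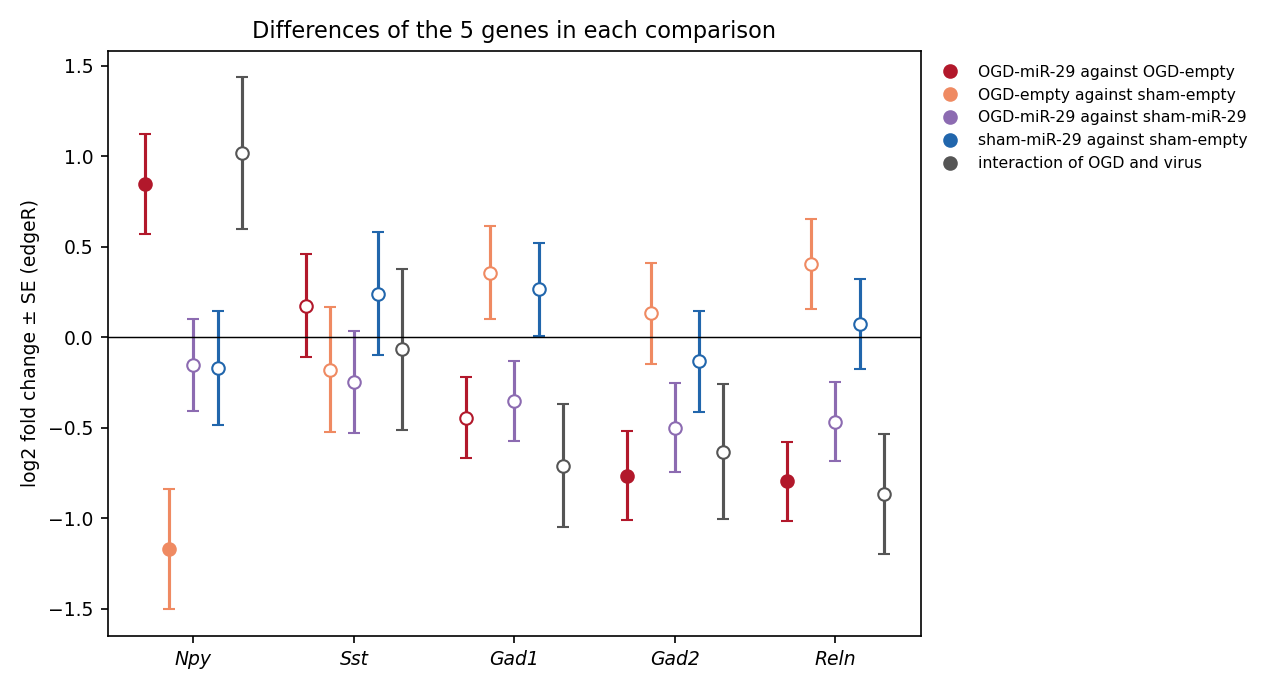
Log2 fold change with its SE from edgeR (vertical axis) for each gene in the 4 pairwise comparisons and the interaction. Filled points passed an adjusted p of 0.05, which held for Npy, Gad2 and Reln after OGD between the viruses and for Npy between OGD-empty and sham-empty cultures.

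By mean level, Npy had 14.8 CPM in OGD-miR-29, 7.70 in OGD-empty, 16.3 in sham-miR-29 and 18.8 in sham-empty cultures. OGD-empty cultures were the lowest, and the step up to the next group, OGD-miR-29, was larger than the spread by the test, while the other steps were not. Reln had 146 CPM in OGD-miR-29, 255 in OGD-empty, 203 in sham-miR-29 and 193 in sham-empty cultures. OGD-empty and sham-miR-29 libraries overlapped, as did the sham groups, and the OGD-miR-29 libraries (up to 168 CPM) lay below both sham-empty libraries (from 181 CPM), a pair not tested here. Gad2 had 44.7 CPM in OGD-miR-29, 76.8 in OGD-empty, 64.3 in sham-miR-29 and 70.7 in sham-empty cultures, and no neighbours in the order of these levels differed by a test. Gad1 had 98.7 ± 27.9 CPM in OGD-miR-29, 135 ± 27.2 in OGD-empty, 127 ± 15.2 in sham-miR-29 and 106 ± 15.2 in sham-empty cultures, and neighbours in level overlapped. Sst had 27.5 ± 11.4 CPM in OGD-miR-29, 24.5 ± 7.51 in OGD-empty, 33.2 ± 5.91 in sham-miR-29 and 28.2 ± 2.27 in sham-empty cultures (SD), with no neighbours apart beyond their spread.

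The other parts of the GABA system were read from named lists. Their counts stand beside 17.2% of all tested genes called higher and 19.9% called lower between the viruses after OGD, and 1.48% higher and 3.61% lower between OGD-empty and sham-empty cultures. Without OGD-empty replicate 2, every list gene named below as called between the viruses after OGD was still called, at edgeR adjusted p-values of up to 0.04285 (Grik1), except Fcer1g. Of 9 tested genes for GABA transport and breakdown, 1 rose and 2 fell between the viruses after OGD. Gabarap, which binds GABA-A receptors and takes part in autophagy, averaged 42.0 ± 3.10 CPM in OGD-miR-29 and 19.3 ± 2.43 CPM in OGD-empty cultures (log2 fold change 1.14, edgeR adjusted p = 0.000603). Slc38a1, a glutamine carrier, had 33.9 ± 4.93 CPM in OGD-miR-29 and 50.7 ± 0.759 CPM in OGD-empty cultures (-0.59, edgeR adjusted p = 0.0213), and its edgeR adjusted p reached 0.110 when a library was left out (lost without OGD-miR-29 replicate 1 or 3 or OGD-empty replicate 1). Gabarap was still called with the span trend removed and the day as a block, and Slc38a1 was not. Slc38a1 was also not called in the compared groups alone. Among those that did not pass, the vesicular GABA transporter Slc32a1 was at -0.01 (SE 0.28) and the GABA transaminase Abat at 0.05 (SE 0.19). For OGD under the empty virus 0 of the 9 were called by edgeR, and the smallest p-values were those of Gabarap (-0.76, SE 0.23) and Slc38a1 (0.57, SE 0.23).

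Of 14 tested GABA receptor genes, 8 fell and 0 rose between the viruses after OGD, where 19.9% of all tested genes were called lower, with a median log2 fold change of -1.20 against 0.02 over all genes. The 14 genes span 29.1 kb (Gabbr1) to 671 kb (Gabrg3). Over all genes with a span, the median was -0.01 at 20 to 50 kb, -0.42 at 50 to 100 kb and -0.78 at 100 to 200 kb. It was -1.26 at 200 to 400 kb and -1.96 over 400 kb. Whether the list as a set fell beyond this trend was not tested. Gabra2 averaged 8.53 ± 1.46 CPM in OGD-miR-29 and 43.0 ± 20.3 CPM in OGD-empty cultures (-2.27, edgeR adjusted p = 0.000483). Gabrb2, another GABA-A subunit, was at -1.64 (edgeR adjusted p = 0.000542), the GABA-B subunit Gabbr2 at -1.13 (0.00124) and Gabra4 at -1.27 (0.00284). With the span trend removed and the day as a block, Gabbr2 was at 0.074 and not called, while Gabra2, Gabrb2 and Gabra4 were still called. Between OGD-empty and sham-empty cultures, the medians of the same span classes over all genes were 0.02, 0.30, 0.58, 0.90 and 1.36, from the shortest class to the longest. Of the 14 receptor genes 3 rose there, where 1.48% of all tested genes were called higher: Gabrb2 (1.20, edgeR adjusted p = 0.0296), Gabbr2 (1.01, 0.0441) and Gabra3 (1.82, 0.0465), with a median of 1.04. All 3 of these calls were lost with the span trend removed and the day as a block, and when either sham-empty library was left out, with edgeR adjusted p-values of up to 0.280 for Gabrb2, 0.405 for Gabbr2 and 0.514 for Gabra3. Without OGD-empty replicate 2, Gabbr2 was not called (0.0646) while Gabrb2 (0.0289) and Gabra3 (0.0474) were, and Gabra3 was not called without OGD-empty replicate 1 or 3. None of the 3 was called in the compared groups alone. Gabbr2 and Gabra3 were not called with limma-voom, nor Gabra3 with DESeq2.

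Of 22 listed interneuron transcription factors 14 were tested. Of these, 1 rose and 4 fell between the viruses after OGD, close to the 37.1% of all tested genes called in either direction. Sox6, needed by interneurons from the medial ganglionic eminence, averaged 6.17 ± 2.24 CPM in OGD-miR-29 and 26.2 ± 16.6 CPM in OGD-empty cultures (-2.04, edgeR adjusted p = 0.00198). Satb1 was at -1.13 (edgeR adjusted p = 0.00329), Zeb2 at -1.42 (0.00369), and Dlx1, a factor of the whole interneuron lineage, at 0.70 (0.0208). Dlx1 was no longer called with DESeq2, nor without OGD-miR-29 replicate 2 or OGD-empty replicate 1 or 3 (edgeR adjusted p of up to 0.0914). Sox6, Satb1 and Dlx1 were not called with the span trend removed and the day as a block, and Zeb2 was. Lhx6, which marks the same lineage as Sst cells, was at -0.06 (SE 0.22) and did not pass. None of the 14 (0) was called by edgeR between OGD-empty and sham-empty cultures, and the smallest p-values were those of Sox6 (1.36, SE 0.49) and Dlx1 (-0.62, SE 0.28).

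Of 23 genes listed as markers of interneuron subclasses 13 were tested, and Pvalb, Vip, Calb2 and Htr3a were among those without a row. Between the viruses after OGD 1 of the 13 rose and 6 fell, beside 17.2% and 19.9% of all tested genes. Whether the reads of this list, or of the transcription factors, came from interneurons alone was not tested in these mixed cultures. The potassium channel Kcnc1 of fast-spiking cells averaged 11.3 ± 1.52 CPM in OGD-miR-29 and 23.7 ± 4.20 CPM in OGD-empty cultures (-1.04, edgeR adjusted p = 0.00472). The kainate receptor subunit Grik1 was at -1.05 (edgeR adjusted p = 0.0134), the chloride exporter Slc12a5 at -0.66 (0.0173) and Tac1, the precursor of substance P, at 1.54 (0.0183). With a library left out these reached edgeR adjusted p-values of 0.0609 for Grik1 (without OGD-miR-29 replicate 2), 0.0753 for Slc12a5 (lost without OGD-miR-29 replicate 3 or OGD-empty replicate 1) and 0.130 for Tac1 (lost without OGD-miR-29 replicate 1 or OGD-empty replicate 1). With the span trend removed and the day as a block, Grik1 turned to 0.34 and was not called, while Kcnc1, Slc12a5 and Tac1 were. Tac1 was not called with DESeq2. Cort, a peptide gene related to Sst, was at 0.11 (SE 0.29). Between OGD-empty and sham-empty cultures 1 of the 13 rose, Kcnc1 (1.36, edgeR adjusted p = 0.0318), and 1 fell, Id2 (-1.16, 0.0344), and these calls too were lost when either sham-empty library was left out (edgeR adjusted p of up to 0.221 for Kcnc1 and 0.281 for Id2). Without OGD-empty replicate 3 neither was called, and without its replicate 2 Id2 was not (0.0623) while Kcnc1 was (0.0313). Kcnc1 was still called with the span trend removed and the day as a block, and Id2 was not. Neither was called in the compared groups alone, and Kcnc1 was not called with limma-voom. Of 10 listed receptors for NPY and somatostatin 1 was tested, Sstr2, at 0.09 (SE 0.32) between the viruses after OGD.

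For the machinery that makes and releases peptides, 1 of 15 tested genes rose and 2 fell between the viruses after OGD, with a median of 0.05. Chga, a granin of dense-core vesicles, averaged 55.8 ± 10.9 CPM in OGD-miR-29 and 28.4 ± 7.47 CPM in OGD-empty cultures (0.97, edgeR adjusted p = 0.00449). Ptprn2, a membrane protein of those vesicles, was at -1.11 (edgeR adjusted p = 0.00442) and Cadps, which primes them for release, at -0.96 (0.00475). With the span trend removed and the day as a block, Ptprn2 turned to 0.64 and was called in that direction (edgeR adjusted p = 0.00979), Cadps turned to 0.49 and was not called, and Chga was still called. Between OGD-empty and sham-empty cultures 0 of the 15 were called by edgeR, and the smallest p belonged to Scg2 (-0.67, SE 0.23) and Cadps (0.77, SE 0.27).

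For the reelin pathway, 1 of 15 tested genes rose and 5 fell between the viruses after OGD, close to the 37.1% of all tested genes called in either direction, with a median of -0.46. The kinase Fyn, which phosphorylates Dab1, averaged 32.5 ± 2.93 CPM in OGD-miR-29 and 69.0 ± 31.9 CPM in OGD-empty cultures (-1.07, edgeR adjusted p = 0.00288). The reelin receptor Vldlr was at -0.87 (edgeR adjusted p = 0.00417), the kinase Cdk5 at 0.87 (0.0115) and Pik3r1, a subunit of PI3-kinase, at -0.71 (0.0130). Pik3r1 was lost without OGD-miR-29 replicate 2 (edgeR adjusted p = 0.0699). Fyn, Cdk5 and Pik3r1 were not called with the span trend removed and the day as a block, and Vldlr was. Under the empty virus, OGD cultures differed from sham cultures in 2 of the 15: Fyn rose (1.10, edgeR adjusted p = 0.0379) and Cdk5 fell (-1.10, 0.0404), and when either sham-empty library was left out neither was called (edgeR adjusted p of up to 0.272 for Fyn and 0.386 for Cdk5). Both were also lost with the span trend removed and the day as a block, and without OGD-empty replicate 2 (0.0824 for Fyn and 0.0800 for Cdk5), and Cdk5 without OGD-empty replicate 3. Neither was called in the compared groups alone, and Fyn was not called with limma-voom. Of the 8 listed markers of Cajal-Retzius cells, 0 had a row.

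**Figure D5:**
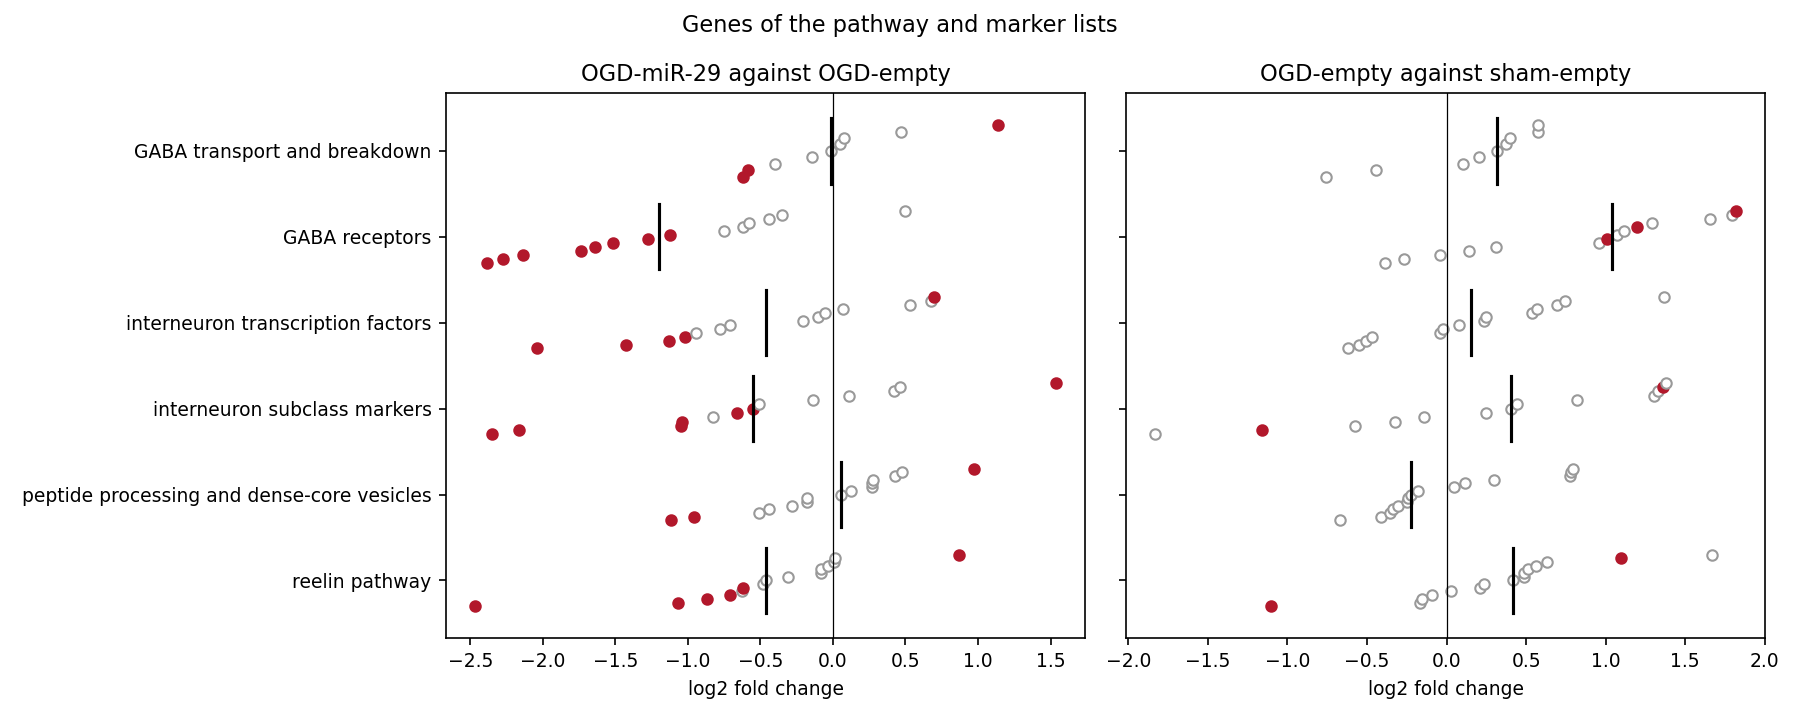
Log2 fold change (horizontal axis) of each tested gene of 6 lists, for OGD-miR-29 against OGD-empty cultures on the left and OGD-empty against sham-empty cultures on the right. Filled red points passed an adjusted p of 0.05 and the black line is the list's median, -1.20 on the left and 1.04 on the right for GABA receptors.

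In the comparisons of OGD-miR-29 with sham-miR-29 and of sham-miR-29 with sham-empty cultures, 0 genes of any list were called by edgeR. The smallest p-values of the GABA receptors between OGD-miR-29 and sham-miR-29 cultures were those of Gabra2 (log2 fold change -0.98, SE 0.31) and Gabbr2 (-0.71, SE 0.23). For transcription factors they were those of Satb1 (-0.98, SE 0.27) and Npas1 (0.83, SE 0.34), and for the reelin pathway those of Rapgef1 (-0.43, SE 0.21) and Cdk5r1 (-0.40, SE 0.22). For the remaining lists they were those of Gabarap (0.34, SE 0.19), Cnr1 (-0.48, SE 0.19), Erbb4 (-0.81, SE 0.60), Scg3 (-0.54, SE 0.20) and Chga (0.63, SE 0.24), with Sstr2 at -0.69 (SE 0.29). Between sham-miR-29 and sham-empty cultures the receptors with the smallest p-values were Gabbr2 (0.59, SE 0.29) and Gabra3 (1.16, SE 0.56), and the transcription factors Lhx6 (0.48, SE 0.29) and Npas4 (0.44, SE 0.30). In the reelin pathway they were Src (0.71, SE 0.35) and Rapgef1 (0.51, SE 0.27), and in the other lists Slc32a1 (0.84, SE 0.37), Id2 (-0.44, SE 0.30), Cort (-0.49, SE 0.35), Pcsk2 (0.32, SE 0.31) and Chgb (-0.22, SE 0.25), with Sstr2 at 0.44 (SE 0.39).

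Markers of other cells also differed between the viruses after OGD, in the comparison in which Npy, Gad2 and Reln were called. The summed level of 12 excitatory neuron markers was 90.9 to 116 CPM in OGD-miR-29 and 159 to 194 CPM in OGD-empty cultures, with 5 called lower, among them Rorb (-1.29, edgeR adjusted p = 0.00225), and 1 higher. Of 14 pan-neuronal markers 6 were called higher, among them Nefl (1.09, edgeR adjusted p = 0.00111), and 5 lower, among them Syt1 (-1.82, 0.00137). Of 7 astrocyte markers 1 was lower, Slc1a2 (-1.18, edgeR adjusted p = 0.000966), at sums of 69.2 to 84.1 CPM in OGD-miR-29 and 99.4 to 119 CPM in OGD-empty cultures. Of 4 microglia markers Aif1 (1.54, edgeR adjusted p = 0.00512) and Fcer1g (1.07, 0.0425) were higher, at sums of 36.2 to 42.8 CPM in OGD-miR-29 and 22.0 to 30.0 CPM in OGD-empty cultures, and Fcer1g was lost without OGD-empty replicate 2 (edgeR adjusted p = 0.0581). It was also lost without OGD-miR-29 replicate 2 or 3 or OGD-empty replicate 1 (up to 0.205). Of 5 oligodendrocyte lineage markers 1 was higher, Sox10 (1.14, edgeR adjusted p = 0.0248, lost without OGD-miR-29 replicate 2 or OGD-empty replicate 1 or 3, at up to 0.132), and the single endothelial or mural marker tested, Vtn, was higher (1.38, 0.00332). Rorb, Syt1, Slc1a2, Fcer1g and Sox10 were not called with the span trend removed and the day as a block, while Nefl, Aif1 and Vtn were. Fcer1g and Sox10 were not called with DESeq2 either. No tested gene of these lists was at 0 in any library, and their part in the differences of the 5 genes was not tested.

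Several of these list genes lie against other genes that hold a large share of counts. Prrc2a had 343% of the count of Aif1, Poldip2 281% of Vtn, Apoa2 183% of Fcer1g, Itpk1 112% of Chga, Sergef 102% of Kcnc1, Abcb8 95.3% of Cdk5 and Gabrb1 275% of Gabra4, summed over libraries. Other named genes have such neighbours too, among them Sstr2 (Slc39a11 at 224%), Cort (Dffa at 132%) and Nefl (Nefm at 103%). So do Sox10 (Polr2f at 94.2%), Slc12a5 (Ncoa5 at 89.5%) and Lhx6 (Morn5 at 73.9%), and this is not a full list. Where reads were counted for both genes of such a pair the values are uncertain. The values of Dlx1 (Dlx2 at 24.2%) and Gabarap (Phf23 at 32.3%) are so to a smaller degree.

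The genes whose pattern was most like that of each of the 5 were ranked by Pearson's r of log2 CPM over the 11 libraries, among 7855 genes with a mean count of at least 20, as a description. Npy was most like Dbi (r = 0.960), Ifi30 (0.958) and Mpv17l2 (0.957), of which the last pair lie side by side. Reln was most like Arhgap20 (0.977), Neurl1a (0.974) and Mapre2 (0.969). Gad2 was most like Rtn4 (0.953), Nup153 (0.941) and Slitrk4 (0.938), and Gad1 most like Zbtb33 (0.930), Rgmb (0.929) and Sik1 (0.928). Sst was most like Bscl2 (0.923), Hdac1 (0.915) and Eras (0.913). None of these 15 was 1 of the other 4 genes, and the libraries share their depth and their group differences. Like Npy, Dbi, Ifi30 and Mpv17l2 are short, at 7.80, 3.89 and 2.30 kb, and those most like Reln span 80.6 to 142 kb.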

How the data were processed

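Reads of 11 cortical culture libraries were analysed as raw read counts per gene, a table the authors deposited. STAR 2.5.0a, featureCounts 1.4.3-p1, edgeR and the mm10 build come from the submitters' processing notes, where no role is given. The counting region and strand setting are not given in the sources used here. In the deposited table, the column labelled sham-empty replicate 3 holds other whole numbers that are no read counts, and it was left out. 0 columns had no sample. The authors' deposited tables hold log2 fold changes, a likelihood ratio score and p-values, per the file headers, and some of their rows for the 5 genes are quoted.

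Libraries were grouped by their labels and fitted together with edgeR 4.0.16 in R 4.3.3 (filterByExpr, TMM scaling, robust quasi-likelihood F test on 4 group means), with Benjamini-Hochberg adjustment over 12119 genes and calls at 0.05. CPM are from the same scaling, and log2 CPM for likeness used a prior count of 2. DESeq2 1.42.0, limma-voom (limma 3.58.1), DESeq2 size factors in edgeR, no filter, no mitochondrial rows, the compared groups alone, a replicate block, that block with a per-library trend over gene span removed, and leaving out each library were tried as alternatives. The fitting code was tested on simulated data. No pair of libraries was a duplicate. Same-numbered libraries share a dissection day, per the series' design text. Over 15 same-numbered pairs, deviations from the group means correlated at -0.0898 to 0.232, with 4 above 0.1. p-values measure the spread between these cultures.

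The 5 genes and the 14 lists were chosen with earlier results of these data known. Named list genes are those called, at most 4 of a list and comparison by adjusted p, or the 2 with the smallest p where none was called, which for lists of other cell types were left out in favour of sums. Genes named beyond 4 or for their role (Slc32a1, Abat, Lhx6, Cort) and the neighbours were chosen after their values were seen. Some genes that the rule names are not reported here.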

Additional observations from a re-analysis of the deposited data

Results flagged for a closer look

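For 10 list genes given here the virus difference after OGD differed from that in sham cultures by the interaction term (OGD-miR-29 minus OGD-empty, less sham-miR-29 minus sham-empty, log2, edgeR adjusted p). Over all tested genes 8.38% were called for it, and none of the 5 genes was among them. The GABA receptor genes Gabbr2 (-1.72, adjusted p = 0.0110), Gabrb2 (-1.79, 0.0121) and Gabra2 (-1.94, 0.0168) had negative interactions, by edgeR. So did Kcnc1 (-1.54, edgeR adjusted p = 0.0370) and Sox6 (-2.23, 0.0480) of the interneuron lists. The neuronal and glial markers Syt1 (-1.97, edgeR adjusted p = 0.0295) and Slc1a2 (-1.53, 0.0159) were also negative. Positive interactions were those of Gabarap (1.10, edgeR adjusted p = 0.0290), Cdk5 (1.38, 0.0331) and Eno2 (1.05, 0.0337). All 10 calls stood without OGD-empty replicate 2, at edgeR adjusted p-values of 0.00346 (Gabrb2) to 0.0469 (Eno2), and all 10 were lost when either sham-empty library was left out. With the span trend removed and the day as a block, 2 of the 10 were still called. Dropping sham-miR-29 replicate 2 lost every call but those of Gabbr2, Gabrb2 and Slc1a2. Dropping replicate 1 of that group lost Gabarap, Sox6, Kcnc1 and Eno2. Sox6 and Kcnc1 were also lost with limma-voom and when any OGD-miR-29 library was dropped. Cdk5, Syt1 and Eno2 were lost without OGD-miR-29 replicate 2 or 3. Gabarap was lost without replicate 3 of that group or OGD-empty replicate 1. Sox6 was further lost with DESeq2 size factors or no mitochondrial rows.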

How the results depend on the processing

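Counts of the 5 genes called are given first. Between OGD-empty and sham-empty cultures (1 called), 0 were called in the compared groups alone and 0 with the replicate block and the span trend removed, and 0 to 1 with a library left out. Between OGD-miR-29 and OGD-empty cultures (3 called), 0 were called with the block and span trend, 2 in the compared groups alone, where Gad2 had an edgeR adjusted p of 0.0666, and 1 to 3 with a library left out. Only Reln was called without OGD-miR-29 replicate 2. For the interaction (0 called), 1 was called with the replicate block (Reln) and 0 to 1 with a library left out. The replicate block changed no other call of the 5 genes. In the other comparisons 0 were called under every alternative run. Under the block and span trend, values turned sign in OGD-miR-29 against OGD-empty cultures for Reln (0.50), Gabbr2 (0.074), Grik1 (0.34), Ptprn2 (0.64), Cadps (0.49), Cux1 (0.16) and the list gene Gphn (0.00080), and for Sst (-0.31), which was not called either way. Of 54 list calls 24 were called again, a number that includes Ptprn2, which was called in the other direction. The sign was kept by 48 of the 54. Sst was also below 0 without OGD-empty replicate 2 (-0.063) and without OGD-miR-29 replicate 2 (-0.031). For OGD-empty against sham-empty cultures 1 of 8 stood, all 8 with the same sign. The cause was not tested.

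Over all genes, OGD-empty against sham-empty gave 617 calls, 1369 with the block (689 higher, against 179 higher of 617), 201 in the compared groups alone and 12 to 984 with a library left out. OGD-miR-29 against sham-miR-29 gave 2, 5 with the block, 25 with the block and span trend and 5 in the compared groups alone. OGD-miR-29 against OGD-empty gave 4501, and 2950 with the block and span trend. The interaction gave 1015, 1861 with the block, and as few as 64 with a library left out (sham-empty replicate 1). No scaling moved the median of all genes by over 0.1. Depth limits Npy most, at 12 to 77 reads a library.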
